A study of Mus musculus with 17 samples.

Results

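Expression of 10 genes that act on the G1 phase of the cell cycle was followed in 17 mammary tumors of mice transgenic for CUX1, a homeodomain transcription factor. They are the Myc genes Myc and Mycn, the D cyclins Ccnd1, Ccnd2 and Ccnd3, and the cyclin-dependent kinase (CDK) inhibitors Cdkn1a, Cdkn1b, Cdkn1c, Cdkn2a and Cdkn2b. They are 10 of the 28661 named genes on the array. The family was taken up, and Ccnd2 set against Ccnd1 and Ccnd3, with their measured values by Wnt cluster in view, so the members were chosen on values of these tumors. For that reason values by Wnt cluster are given as a description, with no test.

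Of the 17 tumors, 9 came from mice carrying a p75-CUX1 transgene and 8 from mice carrying p110-CUX1. Both transgenes are driven by the mouse mammary tumor virus promoter, which is active mainly in mammary epithelium, and all mice were of the FVB strain, with no tumor from a mouse without a transgene. The p75 tumors were 4 adenosquamous carcinomas, 3 solid carcinomas, an adenomyoepithelioma and an adenocarcinoma, and the p110 tumors were 6 solid carcinomas, an adenomyoepithelioma and an adenoma. Epithelial cells were cut out with a laser, and their RNA was amplified in 2 rounds and set on 2-color arrays against a pooled universal mouse reference RNA, with the dyes swapped between arrays. The value of a gene in a tumor is the log2 ratio of tumor over reference, so that 0 is the level of the reference pool and 1 is a doubling. The study sorted the tumors by the expression of Wnt genes on the same arrays into a high-Wnt cluster of 5, a medium-Wnt cluster of 5 and a low-Wnt cluster of 7. High-Wnt tumors were 3 of the 4 adenosquamous carcinomas, 1 of the 9 solid carcinomas and an adenomyoepithelioma, and the low-Wnt tumors were 6 solid carcinomas and the adenosquamous carcinoma p75-101.

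D cyclins are the regulatory subunits of the kinases CDK4 and CDK6, which phosphorylate the retinoblastoma protein and so release the E2F factors that start DNA synthesis. Cdkn2a and Cdkn2b code for inhibitors that bind these kinases directly, while Cdkn1a (p21), Cdkn1b (p27) and Cdkn1c (p57) code for inhibitors that bind cyclin and kinase together. Myc and its relative Mycn are transcription factors that promote entry into the cycle, and Myc is known to repress Cdkn1a and Cdkn2b. Ccnd1 and Myc are textbook targets of the Wnt/β-catenin pathway in the intestine, and cyclin D1 is needed for the growth of the mammary gland during pregnancy.

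The 10 genes have 17 probes, each of 60 bases, and a gene is stood for by its brightest probe. Of the 3 Ccnd2 probes, A_51_P433228 and A_52_P53906 lie in the coding sequence, on the minus strand of chromosome 6 at chr6:127163669-127163728 and chr6:127173178-127173237 of the mm7 build that the files use. A_52_P514391 lies further along the transcript, at chr6:127154070-127154129. The files place the brightest probes of Myc at chr15:62064256-62064316, Mycn at chr12:12999078-12999137, Ccnd3 at chr17:45735858-45735917 and Cdkn1a at chr17:27293819-27293878, and give no position for that of Cdkn2b. The sequences of the coding probes are shown because the size of the Ccnd2 difference between clusters depends on the probe. For Myc and Mycn, the coding probes A_52_P278549 (chr15:62063665-62063724) and A_51_P497332 (chr12:13000197-13000256) are shown because they were the dimmest probes of their genes and did not follow the brightest ones, and capitals mark the longest run of bases that they share, 8 bases.
Ccnd2 A_51_P433228: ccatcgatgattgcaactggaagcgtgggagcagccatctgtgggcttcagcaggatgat
Ccnd2 A_52_P53906: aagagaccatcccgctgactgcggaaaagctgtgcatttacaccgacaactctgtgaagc
Myc A_52_P278549: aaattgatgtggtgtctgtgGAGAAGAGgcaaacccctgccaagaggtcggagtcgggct
Mycn A_51_P497332: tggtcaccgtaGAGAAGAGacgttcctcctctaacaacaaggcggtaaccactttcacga

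A probe was taken as measured in a tumor when most of its spots in the tumor's color stood well above background on each array of the tumor. Ccnd1 and Cdkn1a were measured in all 17 tumors. Myc, Cdkn1b and Cdkn2b were measured in 14 tumors and Ccnd3 in 13. Ccnd2 was measured in 11, Mycn in 8, Cdkn1c in 7 and Cdkn2a in 2, so the ratio of a gene in a tumor where it was not measured is limited by the background of its brightest probe. Over all probes, 18.3% to 61.9% were measured in a tumor. The p110 tumors p110-98, p110-225 and p110-374 had the weakest tumor color, with the reference brighter than the tumor by 8.34-fold to 11.8-fold at the 95th percentile of signal against 4.02-fold or less in the others, and 3 or 4 of the 10 genes were measured in each. The p75 tumors were all scanned in 1 year and the p110 tumors in another, so transgene and scan year cannot be told apart. The medium-Wnt tumor p110-121 stood apart in its markers. Its 6 epithelial markers had a mean log2 ratio of -1.62, with 2 of them measured, against 1.28 to 3.66 in the other tumors, and its 7 immune markers a mean of 2.24, against -1.32 to 0.41. Basal and myoepithelial markers had low means in p110-121 (0.24) and in the low-Wnt tumors p110-314 (-0.09) and p110-416 (-0.31), against 2.36 to 4.62 in the others. Tumor p110-416 also had the lowest mean of fibroblast markers, -3.91.

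Among the D cyclins, Ccnd2 varied the most. In the high-Wnt tumors its log2 ratio was 1.16 for p75-80, 0.91 for p75-94, -0.21 for p110-225, -0.72 for p110-374 and -0.78 for p75-47. In the medium-Wnt tumors it was -1.16 in p110-121, -1.44 in p110-98, -1.52 in p75-90, -2.65 in p75-129 and -2.94 in p75-216. Without p110-121, whose markers stood apart, the highest medium-Wnt value was -1.44, itself an upper bound, and the mean -2.14 ± 0.77 (SD, n = 4). In the low-Wnt tumors it ran from -3.75 in p110-416 to -1.50 in p110-360, with a median of -3.11. With this probe, the 4 high-Wnt tumors in which Ccnd2 was measured thus lay above all medium-Wnt and low-Wnt tumors, while medium-Wnt and low-Wnt tumors overlapped. In the fifth, p110-374, the ratio also lay above them but is only an upper bound, so its place is not fixed. Ccnd2 was the only 1 of the 10 genes whose high-Wnt and low-Wnt ratios, bounds included, did not overlap, which held for 1.70% of all genes. This is the contrast by which Ccnd2 was singled out.

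From the high to the low cluster, mean log2 ratios of Ccnd2 were 0.07 ± 0.91 (SD, n = 5), -1.94 ± 0.79 (SD, n = 5) and -3.01 ± 0.77 (SD, n = 7), and the first exceeded the last by 3.08. This excess was 3.83 among the p75 tumors and 2.26 among the p110 tumors. In 4 of the 7 low-Wnt tumors, in the medium-Wnt tumor p110-98 and in the high-Wnt tumor p110-374, the brightest Ccnd2 probe was not well above background, so these values are upper bounds for that probe. In 2 of the 4 low-Wnt tumors another probe was measured, A_52_P53906 at -0.96 in p75-150 and A_52_P514391 at -3.09 in p110-416. Without the 3 tumors of weak tumor color, 2 of which are high-Wnt, it was 3.44. Within the solid carcinomas, the single high-Wnt tumor, p110-225, had the highest value, and the highest low-Wnt tumor was p110-360.

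The 3 probes of Ccnd2 gave the same direction but not the same size. High-Wnt tumors exceeded low-Wnt tumors by 1.85 on the log2 scale for A_52_P514391 and 1.03 for A_52_P53906, against 3.08 for the brightest probe, and 1.99 for the mean of all 3. With A_52_P514391 the lowest high-Wnt tumor, p75-47, and the highest low-Wnt tumor, p110-360, were both at -2.16, and with A_52_P53906 the clusters overlapped. The largest gap between probes was in p75-94, where the brightest probe gave 0.91, A_52_P514391 gave -0.51 and A_52_P53906 gave -2.38 and was not well above background. Over the 17 tumors the brightest probe correlated with these probes at r = 0.89 and r = 0.54.

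**Figure D1:**
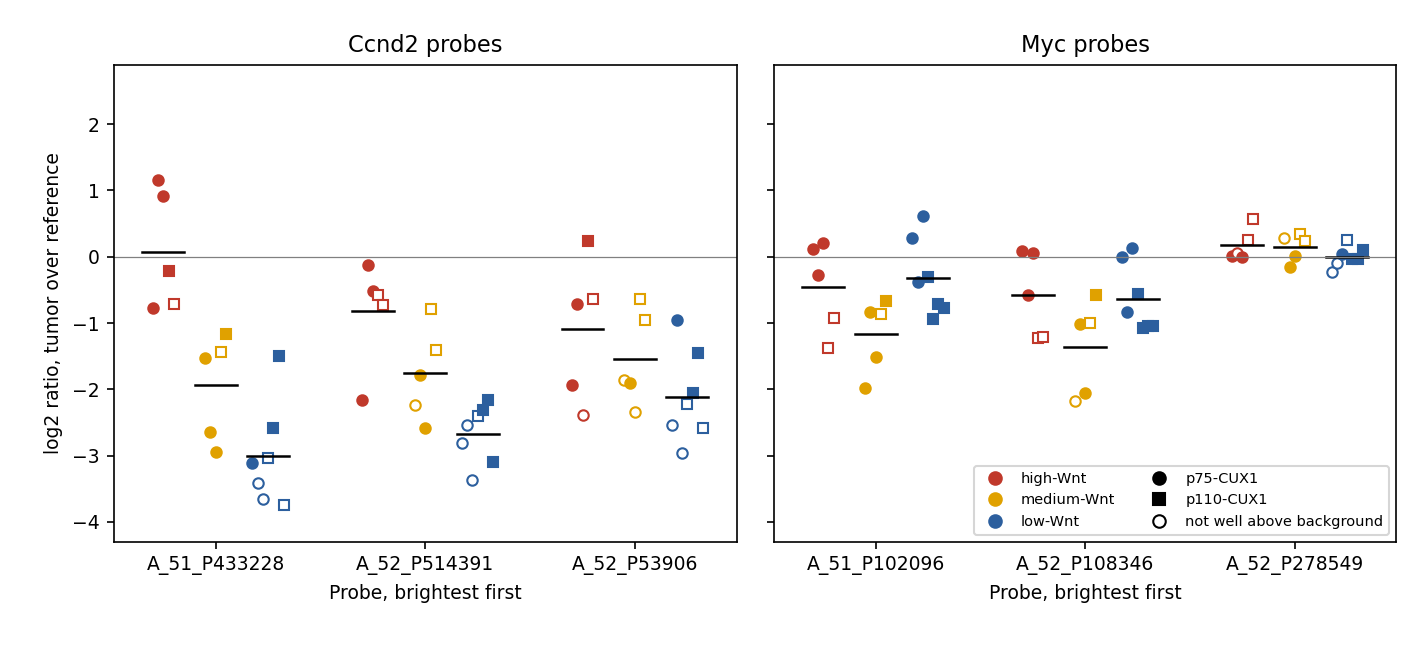
Log2 ratio of tumor over reference (y axis) for the 3 probes of Ccnd2 and of Myc (x axis), each point a tumor, colored by Wnt cluster, with circles for p75 and squares for p110 tumors, open symbols where the probe was not well above background and bars at the cluster means. With the brightest Ccnd2 probe the 4 high-Wnt tumors with filled symbols lie above the low-Wnt tumors, and the third Myc probe lies near 0 in every tumor.

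Ccnd1 was the highest of the D cyclins relative to the reference pool in most tumors and did not follow the clusters. It was above 0 in 11 of the 17 tumors. Its means, from the high to the low cluster, were 0.80 ± 0.95 (SD, n = 5), 1.21 ± 0.96 (SD, n = 5) and 0.44 ± 1.39 (SD, n = 7), and the 3 ranges overlapped. The highest value of all was in a low-Wnt tumor, 3.09 in p110-314, followed by 2.12 in p75-90 and 2.07 in p75-216, both medium-Wnt. The lowest was -0.73 in p110-225, a high-Wnt tumor. High-Wnt minus low-Wnt was 1.26 in p75 tumors and -0.65 in p110 tumors.

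Ccnd3 was below the reference in all 17 tumors and varied the least of the 10 genes. Its log2 ratios ran from -1.25 in p75-534 to -0.29 in p110-374, an SD of 0.22 over the tumors, and 44.2% of all genes had a smaller SD. For Ccnd2 97.1% of all genes had a smaller SD, and for Ccnd1 93.4%. Cluster means of Ccnd3 were -0.62 ± 0.22 (SD, n = 5), -0.77 ± 0.18 (SD, n = 5) and -0.90 ± 0.19 (SD, n = 7) from high-Wnt to low-Wnt. The difference of 0.28 had no fixed sign across scalings. It was -0.40 with the scanner software's own signals, -0.25 with median centering and -0.03 with the tumor's color alone.

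Set against Ccnd1 tumor by tumor, Ccnd2 minus Ccnd1 was 0.52 in p110-225, 0.38 in p75-80, -0.16 in p75-94, -1.69 in p110-374 and -2.68 in p75-47 among the high-Wnt tumors. In medium-Wnt tumors it ran from -5.01 in p75-216 to -0.96 in p110-121, the next being -2.62 in p110-98, with a median of -3.55, and in low-Wnt tumors from -5.68 in p110-314 to -0.87 in p110-360, with a median of -2.92. With the brightest Ccnd2 probe, both tumors with Ccnd2 above Ccnd1, relative to the reference, were high-Wnt. Of the high-Wnt tumors, p75-47 and p110-374 lay within the range of the other clusters. In p75-80 the other Ccnd2 probes gave -0.13 and -0.71, below the Ccnd1 ratio of 0.79. In p75-150, p75-534, p110-143, p110-416, p110-98 and p110-374 the brightest Ccnd2 probe was not well above background, so their differences are upper bounds. High-Wnt tumors averaged -0.73 ± 1.40 (SD, n = 5) and low-Wnt ones -3.45 ± 1.67 (SD, n = 7), which are 2.72 apart. These are differences between ratios to the same reference RNA and not between amounts of transcript.

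Ccnd2 minus Ccnd3 was 1.81 for p75-94, 1.71 for p75-80, 0.41 for p110-225, -0.07 for p75-47 and -0.43 for p110-374, all high-Wnt. The medium-Wnt tumors ran from -1.92 to -0.42 in p110-121, the next being -0.80 in p110-98, and the low-Wnt tumors from -2.88 to -0.91. With the brightest Ccnd2 probe, all 3 tumors with a positive difference were high-Wnt. With A_52_P53906, Ccnd2 lay below Ccnd3 in p75-80, at -0.71 against -0.55. It also did in p75-94, at -2.38, not well above background, against -0.91. In the low-Wnt tumors p75-150, p75-534, p110-143 and p110-416 the differences are upper bounds, through Ccnd2. In p110-374 and p110-98 neither gene was well above background, and Ccnd3 was not in p110-225 and p110-121 either, so the order of these tumors among the others is not fixed. Over the 17 tumors Ccnd2 correlated with Ccnd1 at r = 0.00 (0.27 in the 9 p75 and -0.36 in the 8 p110 tumors) and with Ccnd3 at r = 0.61 (0.60 and 0.77), values that all rest on ratios to the same reference.

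**Figure D2:**
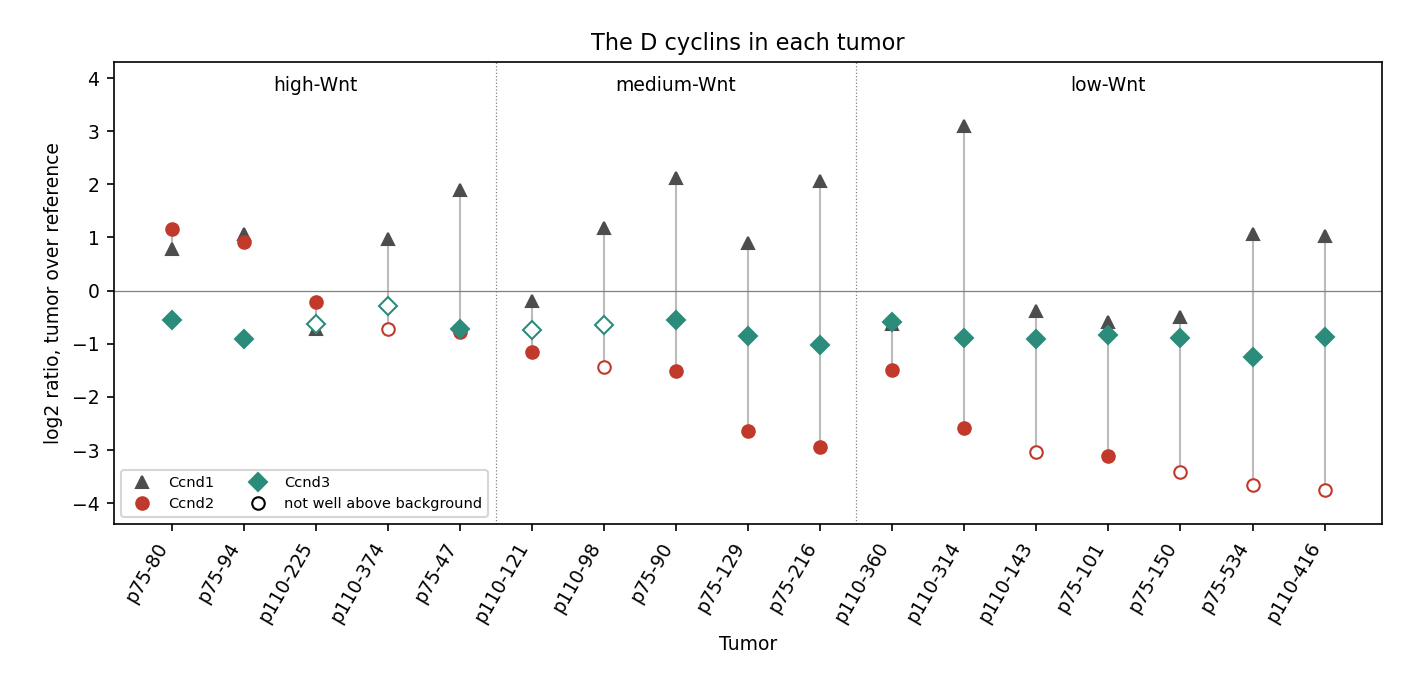
Log2 ratio of tumor over reference (y axis) of Ccnd1, Ccnd2 and Ccnd3 in each of the 17 tumors (x axis), ordered within each Wnt cluster by Ccnd2, with a gray line from Ccnd1 to Ccnd2 and open symbols marking genes not well above background. Ccnd2 falls from 1.16 in p75-80 to -3.75 in p110-416, while Ccnd3 stays between -1.25 and -0.29.

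Of the CDK inhibitors, Cdkn2b and Cdkn1a were lower in low-Wnt tumors and rose and fell together. Cdkn2b was 0.63 for p75-94, 0.55 for p75-47, 0.23 for p75-80, -0.99 for p110-374 and -1.46 for p110-225 among the high-Wnt tumors. In medium-Wnt tumors it ran from -1.73 in p75-129 to 0.29 in p75-216. In low-Wnt tumors it ran from -3.84 in p110-143 to -0.36 in p110-416, with a median of -2.86. The 3 high-Wnt tumors above 0 were the p75 adenosquamous carcinomas, and the ratios of 6 of the 7 low-Wnt tumors lay below those of all high-Wnt tumors, p110-416 being the exception. In p110-374 and in the low-Wnt tumors p75-150 and p110-143 Cdkn2b was not well above background, so these ratios are upper bounds and the place of p110-374 is not fixed. High-Wnt minus low-Wnt was 2.34 on the log2 scale, 3.36 in p75 and 1.07 in p110 tumors, and 1.49 with median centering.

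Cdkn1a was 0.69 for p75-94, 0.43 for p75-47, 0.25 for p75-80, -0.64 for p110-374 and -1.81 for p110-225 among the high-Wnt tumors. In medium-Wnt tumors it ran from -1.48 in p110-121 to 0.80 in p75-216, and in low-Wnt tumors from -3.23 in p75-150 to -0.43 in p110-416, with a median of -2.07. High-Wnt and low-Wnt tumors overlapped, through p110-225 and p110-374 on one side and p110-416 and p110-314 on the other. The difference between their means was 1.79, with 3.05 in p75 tumors and 0.33 in p110 tumors. It was 0.89 with median centering and 2.46 without the 3 tumors of weak color.

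Cdkn1a and Cdkn2b correlated at r = 0.82 over the 17 tumors, the highest of the 45 pairs of the 10 genes. It was 0.92 in the 9 p75 tumors, 0.70 in the 8 p110 tumors and 0.77 without the 2 tumors farthest from the median of Cdkn2b. Ccnd2 and Cdkn2b correlated at 0.57, with 0.77 in p75 and 0.21 in p110 tumors. In tumor p110-416 they went apart, with Ccnd2 at -3.75 for the brightest probe, not well above background, and at -3.09 for A_52_P514391, which was measured, and with the highest Cdkn2b of the low-Wnt tumors. Myc correlated with Cdkn1a at -0.22 and with Cdkn2b at -0.14. The points share reference, arrays and amplification, and no test was made.

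**Figure D3:**
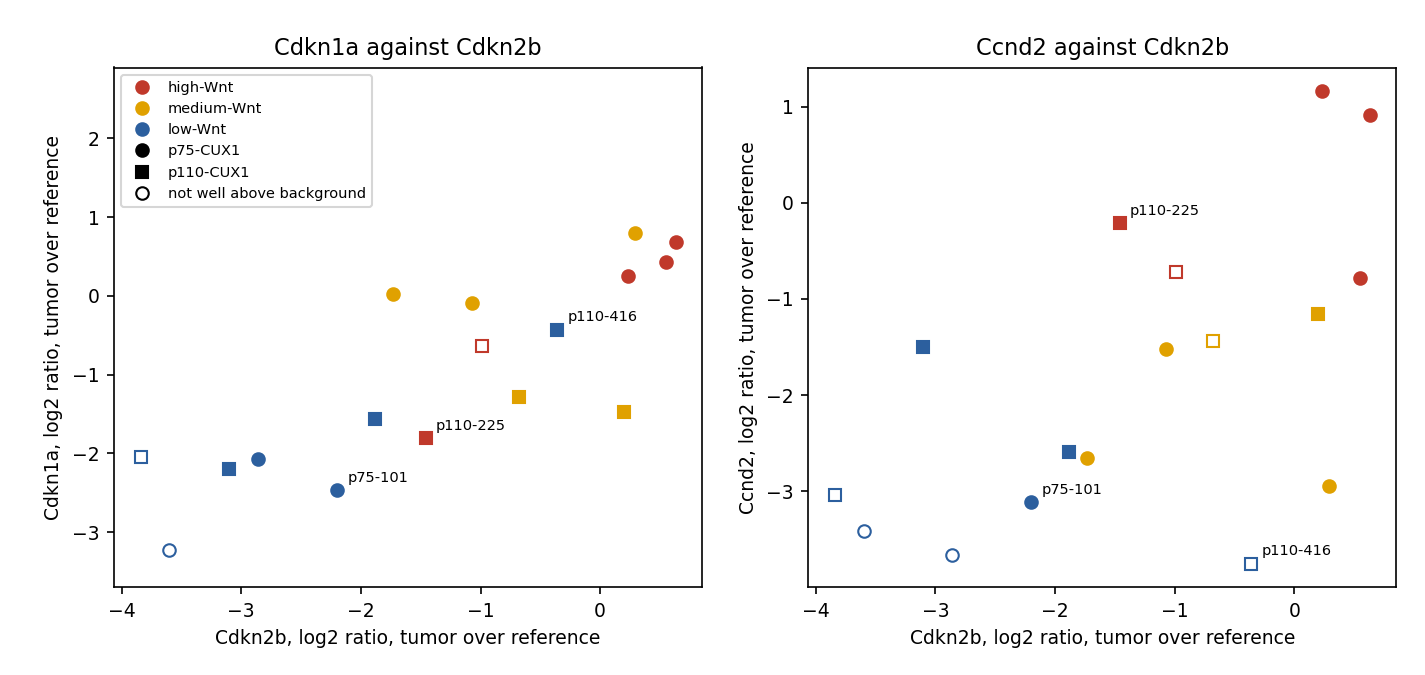
Cdkn1a (left) and Ccnd2 (right) against Cdkn2b, each as log2 ratio of tumor over reference, with a point for each of the 17 tumors, colored by Wnt cluster, circles for p75 and squares for p110 tumors, and open symbols where either gene was not well above background. Cdkn1a rises with Cdkn2b across the tumors (r = 0.82), and p110-416 combines a Cdkn2b of -0.36 with a Ccnd2 of -3.75.

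The promoters of Cdkn2b and Cdkn1a are shown because these inhibitors moved together, as RefSeq gives them for GRCm38.p6, from 250 bases before to 50 bases after a start site. That of Cdkn2b is on the minus strand at chr4:89310983-89311282, and that of Cdkn1a on the plus strand at chr17:29093519-29093818. Capitals mark letters that match CUX1 sites (ATCGAT or ATCAAT), the Myc E-box (CACGTG), the TCF site (CTTTGA), the GC box (GGGCGG) or the TATA box (TATAAA) on either strand, none of which overlap here.
Cdkn2b: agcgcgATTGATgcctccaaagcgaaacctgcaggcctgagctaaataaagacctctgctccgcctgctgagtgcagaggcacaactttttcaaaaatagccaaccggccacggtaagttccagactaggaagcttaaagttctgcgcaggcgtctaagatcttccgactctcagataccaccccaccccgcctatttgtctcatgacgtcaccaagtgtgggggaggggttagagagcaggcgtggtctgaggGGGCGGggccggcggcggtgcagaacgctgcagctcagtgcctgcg
Cdkn1a: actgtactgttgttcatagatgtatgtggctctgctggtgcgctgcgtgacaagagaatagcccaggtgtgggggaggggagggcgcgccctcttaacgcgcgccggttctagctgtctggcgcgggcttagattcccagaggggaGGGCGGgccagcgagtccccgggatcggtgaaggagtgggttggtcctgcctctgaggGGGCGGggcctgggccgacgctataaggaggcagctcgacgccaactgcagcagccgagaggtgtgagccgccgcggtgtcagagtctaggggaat

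In the Cdkn2b promoter a CUX1 motif stands in reverse near the far end, and a GC box stands just after the start. This Cdkn1a promoter holds 2 GC boxes and no other of these motifs. RefSeq gives a further Cdkn1a promoter, at chr17:29090729-29091028, which holds none of them and is not shown. The table holds 9 promoters for 6 of the 10 genes, of which 2 hold a CUX1 motif, 8 a GC box, 1 a TCF motif, and none an E-box or a TATA box. Of all 32851 promoters, 8.4% hold a CUX1 motif, 35.7% a GC box, 16% a TCF motif, 7.15% an E-box and 13.6% a TATA box. These are matches of letters and not sites of binding.

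Cdkn2a codes for 2 inhibitors with different first exons, p16INK4a and p19ARF, and its single probe does not separate them. It was measured only in p75-216, at 0.09, and in p110-416, at -0.24, which were its highest values. In the other 15 tumors it was not well above background, with ratios of -2.02 to -0.54, while the reference was well above background on all 38 arrays. The values are therefore upper bounds in all but 2 tumors. Both measured tumors also had Cdkn2b among their higher values, 0.29 and -0.36.

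Cdkn1b, stood for by a probe to the cDNA AK169586 that the files name Cdkn1b, was close to the reference in every cluster. Its means were -0.27 ± 0.53 (SD, n = 5), -0.42 ± 0.60 (SD, n = 5) and -0.47 ± 0.63 (SD, n = 7) from high-Wnt to low-Wnt, and the difference of 0.19 between the outer clusters turned to -0.46 with median centering. The highest values were 0.68 in p110-143, 0.63 in p110-374 and 0.56 in p75-90, 1 tumor of each cluster. Of its probes to the RefSeq transcript, A_52_P673863 was measured in no tumor and A_51_P169173 in 2, where it gave the opposite sign. It was at 0.17 in p75-129 and 0.78 in p110-314, against -0.90 and -0.13 with the brightest probe, and the probes correlated at r = -0.09 over the 17 tumors.

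Cdkn1c had its 4 highest ratios in low-Wnt tumors, 1.97 in p75-150, 1.72 in p110-416, 1.49 in p75-101 and 1.13 in p110-360. It was measured in 5 of the 7 low-Wnt tumors, in 1 high-Wnt tumor (0.79 in p75-80) and in 1 medium-Wnt tumor (0.34 in p75-129). The reference itself was well above background on only 6 of the 38 arrays, so the ratios of measured tumors are mostly lower bounds, those of the other tumors mostly set background against background, and no cluster means are read from them.

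Myc was lowest in the medium-Wnt tumors, at -1.17 ± 0.56 (SD, n = 5), with -0.46 ± 0.69 (SD, n = 5) for high-Wnt and -0.32 ± 0.58 (SD, n = 7) for low-Wnt ones. The outer clusters differed by -0.14, a direction that was not fixed. The difference was -0.92 with median centering, 0.03 with the mean of all probes and 0.33 without the 3 tumors of weak color, and in p110-225 and p110-374 Myc was not well above background. The highest values were 0.62 in p75-534 and 0.28 in p75-101, both low-Wnt, and the lowest -1.98 in p75-90 and -1.51 in p75-216, both medium-Wnt. The second probe followed the brightest closely (r = 0.96). The dim coding probe shown above ran only from -0.23 to 0.57 and correlated with the brightest at -0.42.

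Mycn was high in a single tumor of each transgene. It was 2.84 in p75-94, a high-Wnt adenosquamous carcinoma, and 2.24 in p110-314, a low-Wnt solid carcinoma. The next value was 0.67 in p75-80, and in 9 tumors the brightest probe was not well above background, among them all 5 medium-Wnt tumors. The second probe, whose sequence is given above, was at -0.15 and 0.13 in the 2 high tumors and was measured in 1 other tumor, p75-129, at -0.09. Tumor p110-314 also had the highest Ccnd1 of all tumors.

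**Figure D4:**
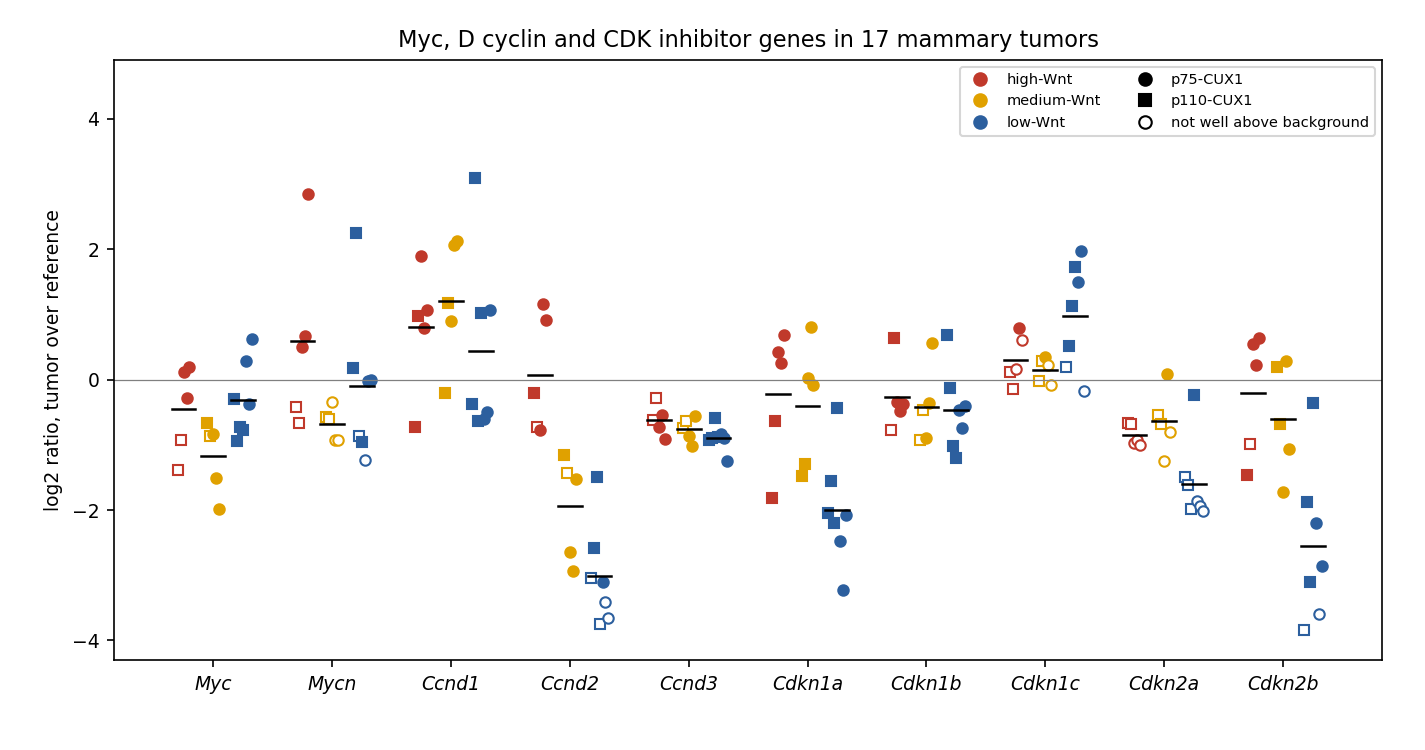
Log2 ratio of tumor over reference (y axis) for the 10 genes (x axis), each point a tumor, colored by Wnt cluster, with circles for p75 and squares for p110 tumors, open symbols where the gene was not well above background, and bars at the cluster means. Ccnd2, Cdkn1a and Cdkn2b have their lowest points in low-Wnt tumors, and Cdkn1c its highest.

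Whether these genes differ with histology was tested within the p75 tumors, between 4 adenosquamous and 3 solid carcinomas, in a limma fit to 28661 genes that also held the p110 solid carcinomas. None of the 10 genes was called at an adjusted p under 0.05, and none of all genes was (0%). At an unadjusted p under 0.05 there were 824 genes (2.87%), and Ccnd2 and Cdkn2b were 2 of them. Since 3 of the 4 adenosquamous and none of the p75 solid carcinomas are high-Wnt, this contrast shares tumors with the clusters and is not independent of how Ccnd2 was singled out.

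In adenosquamous carcinomas Ccnd2 was 1.16, 0.91, -0.78 and -3.11, the last in p75-101, and in p75 solid carcinomas it was -2.65, -3.41 and -3.66. The groups overlapped because of p75-101, the low-Wnt adenosquamous tumor. The difference was 2.79 (SE 1.04, limma adjusted p = 1) and 3.67 without p75-101 (limma adjusted p = 0.644). The size depended on the setting, with 4.12 for the scanner software's signals, and on the probe, with 1.16 for A_52_P514391, 0.05 for A_52_P53906 and 1.33 for the mean of all Ccnd2 probes. For Cdkn2b the values were 0.63, 0.55, 0.23 and -2.20 against -1.73, -2.86 and -3.60, a difference of 2.53 (SE 1.0, limma adjusted p = 1). The -3.60 of Cdkn2b in p75-150, and the -3.41 and -3.66 of Ccnd2 in p75-150 and p75-534, were not well above background and are upper bounds. For Cdkn1a they were 0.69, 0.43, 0.25 and -2.47 against 0.03, -2.07 and -3.23, a difference of 1.48 (SE 0.86, limma adjusted p = 1), which was 0.74 without p75-150 and 2.38 without p75-129.

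For each of these 3 genes p75-101 thus lay within the range of the solid carcinomas while the other 3 adenosquamous tumors lay above it. Tumor p75-101 was on the same slide as the solid carcinoma p75-150 and was scanned on the same day. A trait of this tumor and an effect of its slide cannot be told apart. The remaining 7 genes differed by 0.06 for Cdkn1c to 0.81 for Mycn, which was 0.10 without p75-94 and 0.40 with slide as a block. All 10 differences were positive, with a median of 0.42, but those of Myc, Ccnd1 and Cdkn1c turned under other settings. The genes were chosen with values of these tumors in view, so their shared sign is a description only. Cdkn2a was not measured in any of these 7 tumors, so its difference has no fold. No gene of the 10 had groups that did not overlap, which 5.04% of all genes had.

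Between p75 and p110 tumors, none of the 10 genes was called, against 0.429% of all genes (123 of 28661), and none had groups that did not overlap, against 0.181%. None had an unadjusted p under 0.05 in limma, against 13.5% of all genes. The largest difference was for Cdkn1a, 0.80 higher in p75 tumors (SE 0.56, limma adjusted p = 0.575), with -0.63 ± 1.53 (SD, n = 9) against -1.43 ± 0.63 (SD, n = 8). Ccnd1 differed by 0.44 (SE 0.54), Cdkn2b by 0.43 (SE 0.70) and Myc by 0.40 (SE 0.31). Median centering gave 2.09 for Cdkn1a, 1.64 for Ccnd1, 1.57 for Cdkn2b and 1.51 for Myc, and 1.01 in place of 0.01 for Cdkn1b (limma adjusted p = 0.0565), with no call. Solid carcinomas alone gave -0.17 for Cdkn1a and -0.99 for Cdkn2b, and histology in the fit gave -0.51 for Cdkn2b. Ccnd2 had nearly equal means, -1.78 ± 1.84 (SD, n = 9) in p75 and -1.80 ± 1.21 (SD, n = 8) in p110 tumors, each group with high-Wnt and low-Wnt tumors.

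The Ccnd2 difference of 0.02 was -1.20 among solid carcinomas alone and -1.18 with histology in the fit, and 1.07 with median centering, with no call in any. Ccnd3 was 0.15 lower in p75 tumors (SE 0.10), but 0.61 higher with the scanner software's signals and 0.62 higher with median centering. In all of these fits the transgene stands for the scan year as well.

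**Figure D5:**
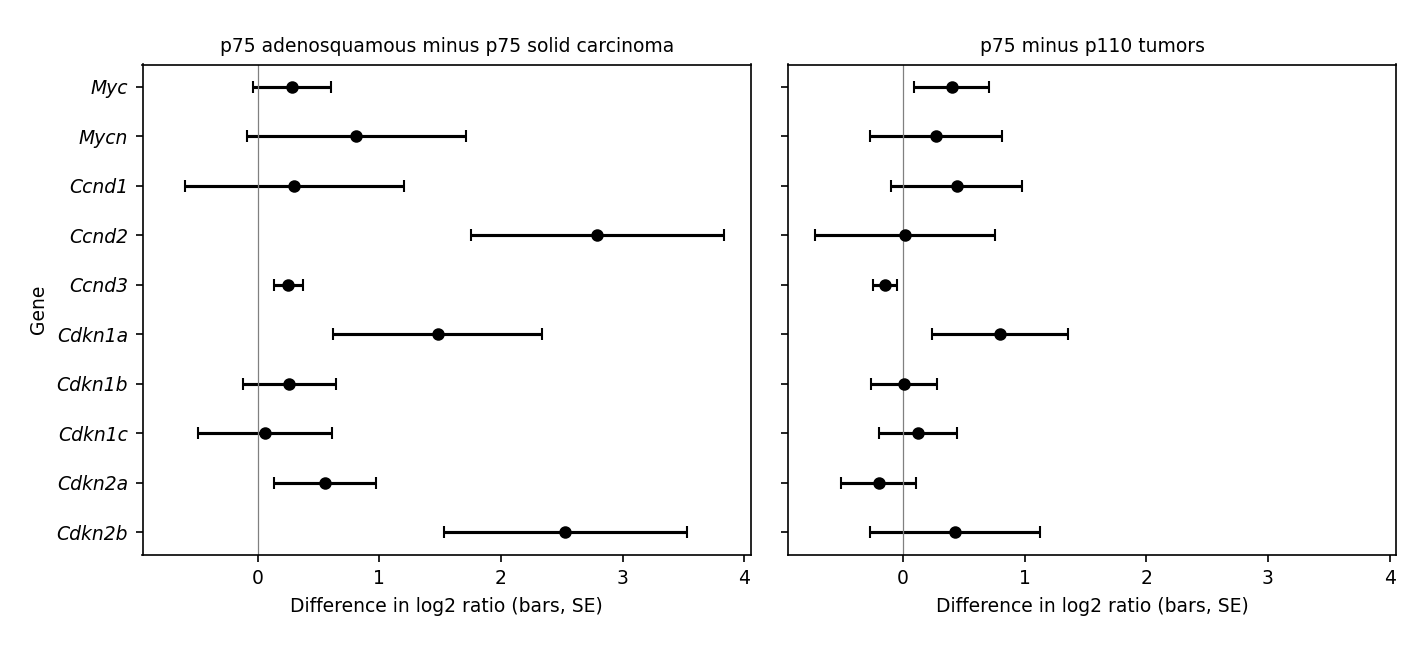
Difference in mean log2 ratio (x axis, points, with bars for the SE of the limma fit) of the 10 genes (y axis) between p75 adenosquamous and p75 solid carcinomas (left) and between p75 and p110 tumors (right). The largest differences are those of Ccnd2 (2.79) and Cdkn2b (2.53) on the left, and no gene passed the adjusted threshold on either side.

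Genes that act with these 10 did not pass either test. In each of the lists, 0 genes were called in either direction, among 15 partners in the retinoblastoma pathway, 12 partners of Myc, 12 targets of Myc, 10 regulators and targets of p53 and Cdkn1a, and 5 genes of p27 turnover. Of all genes, 0% were called between the histologies and 0.429% between the transgenes. For lists of this size, 0 calls is near that share. The smallest p of each list was in every case in the comparison of transgenes. E2f3, an E2F factor, was 0.95 higher in p75 tumors (SE 0.26, limma adjusted p = 0.113). In the same list E2f1 went the other way, by -1.85 (SE 0.6, limma adjusted p = 0.163). Mdm4, an inhibitor of p53, was 0.45 lower, with a difference of -0.45 (SE 0.14, limma adjusted p = 0.153). Cks1b, a cofactor in the degradation of p27, was 0.78 higher (SE 0.27, limma adjusted p = 0.196), Mxd3, a repressor that pairs with the Myc partner Max, differed by -0.77 (SE 0.27, limma adjusted p = 0.199), and Nop56, a Myc target for ribosome assembly, by 0.76 (SE 0.30, limma adjusted p = 0.262). Among the Myc targets Fbl went the other way, by -1.21 (SE 0.49, limma adjusted p = 0.27). Medians of the lists between adenosquamous and solid carcinomas ran from 0.04 for the retinoblastoma pathway to 0.33 for Myc targets.

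The 12 Myc targets, like Myc, had their lowest median in the medium-Wnt tumors, with ranges that overlapped. Their mean log2 ratio ran from -1.25 to -0.51 in medium-Wnt tumors (median -1.11), from -1.0 to 0.03 in high-Wnt tumors (median -0.26) and from -1.08 to -0.26 in low-Wnt tumors (median -0.57). The -1.11 is the value of p110-121, whose markers stood apart. The other medium-Wnt tumors were at -1.25, -1.17, -0.71 and -0.51. Proliferation markers had a median of -1.65 in medium-Wnt, -0.79 in high-Wnt and -1.14 in low-Wnt tumors, with ranges that overlapped widely. All 14 proliferation markers were measured in at least 1 tumor, and their median difference between p75 and p110 tumors was 0.80, with none called.

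Of the 6 epithelial markers, Krt8 and Krt18 were measured in all 17 tumors, Krt5 and Krt14 in 16, Epcam in 14 and Cdh1 in 6, and their mean log2 ratio ran from 2.43 to 3.48 in high-Wnt and from 1.28 to 3.04 in low-Wnt tumors. The mean log2 ratio of 8 basal and myoepithelial markers was 2.63 to 4.62 in high-Wnt tumors and -0.31 to 3.28 in low-Wnt tumors, ranges that overlapped. The low-Wnt tumors p110-416, at -0.31, and p110-314, at -0.09, lay apart from the other low-Wnt tumors, at 2.36 to 3.28. In falling order of Ccnd2, the high-Wnt tumors were at 4.43 (p75-80), 2.63 (p75-94), 3.7 (p110-225), 4.62 (p110-374) and 3 (p75-47). The high-Wnt mean was higher for 7 of the 8, from 0.56 for Myh11 to 3.27 for Krt5, and lower by a difference of -0.57 for Oxtr, measured in only 2 tumors. Of the 8 squamous markers, Ivl and Flg were measured in no tumor, and the mean of the list was 0.02 to 1.77 in adenosquamous and -0.09 to 0.09 in p75 solid carcinomas. By cluster it was 0.02 to 1.77 in high-Wnt, 0.09 to 0.46 in medium-Wnt and -0.14 to 0.06 in low-Wnt tumors. The highest means were 1.77 in p75-80 and 0.92 in p75-94, the 2 tumors with Ccnd2 above 0. Fibroblast markers ran from -2.00 to 0.76 in high-Wnt and from -3.91 to 0.08 in low-Wnt tumors, and all 8 were measured in some tumors. The 7 immune markers ran from -0.50 to 0.22 and from -1.03 to 0.41, the 6 endothelial markers from 0.73 to 2.03 and from 0.83 to 2.77, and the 4 adipocyte markers, with Lep measured in no tumor, from 0.87 to 5.04 and from 0.68 to 5.19. Luminal markers, with Pgr measured in no tumor, ran from 1.11 to 3.31 and from 1.97 to 2.91. The part of other cell types in the differences above was not tested, and in these samples fewer cells of a type and less RNA per cell cannot be told apart.

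The genes most like a member were sought among the 11240 genes measured in at least 9 tumors, by Pearson's r over the 17 tumors. For Ccnd2 they were Porcn (0.90), which codes for the acyltransferase that loads Wnt proteins with lipid, the ligand Wnt6 (0.90), Calhm2 (0.88), the keratin Krt16 (0.87) and the kinase Plk3 (0.84). For Myc they were Nap1l1 (0.89), Spry1 (0.83), the RNA helicase Ddx21 (0.83), Hnrnpa1 (0.82) and Tuba1a (0.82). For Ccnd1 the closest with gene symbols were Pam16 (0.80), Ndufa8 (0.75) and Mif (0.74), beside LOC619750 (0.80) and a transcript the files name only by an identifier (0.77). For Cdkn2a, compared with 11241 genes and measured in only 2 tumors, they were Tsc22d4 (0.87), Dglucy (0.83), Def6 (0.82) and 2 probes without a gene symbol (0.82 and 0.80). Wnt6 belongs to the genes by which the tumors were clustered.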

How the data were processed

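RNA of 17 tumors was hybridized on 38 arrays by the authors, 2 arrays a tumor and 4 for p110-143 and p110-360. The spot intensity and background values deposited by the authors come from Agilent Feature Extraction and are not normalized. The authors' processed table gives, per tumor, log2 values of tumor against reference, averaged over the arrays of a tumor, and the submitters' processing notes name limma. Values were computed again with R 4.3.3 and limma 3.58.1. The steps were normexp with an offset of 50, removal of controls and outlier spots (0.545%), loess on each array, turning by the dye, and averaging over the spots of a probe and the arrays of a tumor. Without removal of spots the same steps gave the deposited table within 4.98e-08. Of 41174 probes, 22951 (55.7%) took a RefSeq symbol by accession. Others kept the file's name. The brightest probe stood for a gene. Dye swaps cancel a dye effect, 2 rounds of amplification may favor the ends of transcripts, and the number of arrays limits precision.

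Comparisons across all genes used lmFit and eBayes with Benjamini-Hochberg adjustment at 0.05, with 1 value per tumor and no covariate. For blocks, tumors linked by a slide or scan day formed 1 block. The fit was tested on simulated data. Each tumor carries the number of its own mouse. Wnt clusters were taken from the study's heat map. Named were all 10 genes, called genes of each list or else the gene with the smallest p, and the 5 genes most like Ccnd2, Myc, Ccnd1 and Cdkn2a. The members and lists were chosen with earlier results of these data known. Figures were drawn with matplotlib 3.10.9.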

Additional observations from a re-analysis of the deposited data

Results flagged for a closer look

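In 7 of 40 combinations of a gene and a group of tumors, a tumor stood apart from the others, its gap to the nearest tumor being a large share of the group's range. Chance alone would do this in about 1 of 20 groups if they were independent. Here several groups share tumors, and the genes were chosen with values of these tumors in view. No excess over chance is therefore read from the 7.

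Mycn stood apart in p75-94 among p75 tumors, at 2.84 with the next at 0.67, and in p110-314 among p110 tumors and among p110 solid carcinomas, at 2.24 with the next at 0.18. The adenosquamous tumor p75-101 stood apart from the other 3 adenosquamous carcinomas with Cdkn1a at -2.47 (next 0.25), Cdkn2b at -2.20 (next 0.23) and Cdkn2a at -1.86 (next -1.0), the last not well above background in any of the 4. This tumor shared slide and scan day with the solid carcinoma p75-150, so tumor and slide cannot be told apart. Cdkn1b stood apart in p75-90 among p75 tumors, at 0.56 with the next at -0.35.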

How the results depend on the processing

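The number of the 10 genes called was 0 in both comparisons under all 26 and 30 alternatives. Over all genes, the tumor's color alone called 1 gene between p75 adenosquamous and solid carcinomas, and leaving out each tumor gave 0 to 5, with 5 without p75-101 and 1 without p75-129. Between p75 and p110 tumors, 205 genes were called without background correction, 283 with the scanner software's signals, 1200 with median centering, 2246 with the tumor's color alone, 292 with scan day as a block, 0 in solid carcinomas alone, 47 with histology in the fit, 78 without the 3 tumors of weak color, and 14 (without p75-534) to 1012 (without p110-314) when each tumor was left out. The cause of these shifts was not tested.

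The Ccnd2 excess of high-Wnt over low-Wnt tumors was 4.35 with the scanner software's signals and 1.99 with the mean of all probes, and 2.81 to 3.33 when each tumor was left out. That of Ccnd2 minus Ccnd1 ran from 1.62 to 3.92, of Cdkn1a from 0.89 to 2.46, of Cdkn2b from 1.49 to 3.02 and of Myc from -0.92 to 0.33.

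Between adenosquamous and solid carcinomas, Cdkn1c turned to -0.03 without background correction and -0.02 with slide as a block, and median centering gave Myc -0.02 and Ccnd1 -0.01. Leaving out each tumor gave -0.20 to 0.76 for Ccnd1, -0.39 to 0.69 for Cdkn1c and -0.04 to 0.68 for Myc. Between p75 and p110 tumors, Ccnd3 turned to 0.61 with the scanner software's signals and 0.62 with median centering, which gave Cdkn2a 0.08. The mean of all probes gave Ccnd2 -0.32 and Cdkn1b -0.01. The tumor's color alone gave Mycn -0.06 and Cdkn1b -0.44. Solid carcinomas alone gave Mycn -0.06, Ccnd2 -1.20, Cdkn1a -0.17, Cdkn1b -0.12 and Cdkn2b -0.99, and histology in the fit gave Mycn -0.13, Ccnd2 -1.18, Cdkn1b -0.07 and Cdkn2b -0.51. Without the 3 tumors of weak color Cdkn1c was -0.12. Leaving out each tumor gave -0.34 to 0.26 for Ccnd2, -0.11 to 0.17 for Cdkn1b, -0.08 to 0.62 for Mycn and -0.06 to 0.29 for Cdkn1c.

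The tumor's color alone and the removal of weak tumors or of p110-121 were chosen after seeing the data. No paired analysis was possible because replicate numbers only name tumors. Signal over background limits Ccnd2, Mycn, Cdkn1c and Cdkn2a most, and Myc, Ccnd3, Cdkn1b and Cdkn2b in 3 or 4 tumors each, transgene and scan year cannot be told apart, and the comparison of histologies rests on 3 and 4 tumors.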
